A study of Danio rerio with 28 samples.

Results

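The hatching gland genes examined were he1.1, he1.2, ctslb, klf17 and cd63, chosen by name. A probe was found through its RefSeq accession for 4 of the 5 genes, by 6 of the 43603 probes on the array. ctslb (cathepsin Lb, on chromosome 12 in the RefSeq annotation of GRCz12tu) matched no probe by accession and was not analysed here. he1.1, he1.2 and cd63 had 1 probe each, and klf17 had 3. In all, 15163 probes carried the name of 1 of 10536 genes.

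RNA was taken from 28 pools of 30 whole zebrafish embryos of the wild-type strain DZ. The 4 DMSO groups stood in 0.1% DMSO from about 3 hpf and the 4 E2 groups in 1 µM 17β-estradiol (E2) in the same vehicle, with the medium renewed daily. Collection was at 24, 48, 72 and 104 hpf, called 1, 2, 3 and 4 dpf, with 3 pools per treatment at 1 and 2 dpf and 4 per treatment at 3 and 4 dpf. Each biological replicate was a separate spawning from its own parents, and each pool was hybridized to 1 array with 1 dye. A pool averages its 30 embryos, and hatching itself was not scored in the data analysed here.

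The hatching gland is a transient organ of secretory cells that arise at the front of the prechordal plate and come to lie over the yolk sac of the zebrafish embryo. The cells store proteases in granules and release them onto the chorion, the envelope around the embryo, which the enzymes soften until the larva breaks out, normally between 2 and 3 dpf. Once emptied, the gland is lost.

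Each gene has a known place in this process. he1.1 and he1.2 (formerly he1a and he1b) encode hatching enzyme 1, a metalloprotease of the astacin family that digests the chorion. klf17 (formerly biklf or klf4b) encodes a Krüppel-like zinc finger transcription factor of the early hatching gland and of primitive red blood cells. cd63 encodes a tetraspanin of the membranes of late endosomes and secretory granules, present in the hatching gland and in many other cells.

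In the same annotation he1.1 and he1.2 are neighbours on chromosome 22, klf17 lies on chromosome 2 and cd63 on chromosome 23. No positions are given because the build behind the array's probes is not given in the sources used here. The hatching enzyme genes are close copies of each other. The probe sequences were not used here, so how far each of the 2 he1 probes also binds the transcript of the other gene was not tested.

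Signals are given as normalized log2 values, which compare arrays for 1 probe but not different probes with each other. The share of spots that the scanner software marked as well above background was 58.1 to 96.1% per array (median 71.0%). The highest share was that of E2 replicate 1 at 3 dpf, and the next highest was 73.8%. Markers of the other tissues of a whole embryo were detected in all 8 groups. All probed markers of epidermis (10), macrophages and neutrophils (8), notochord (5), muscle (8) and nervous system (9) were above background on every array, as were at least 7 of 8 of erythrocytes, 7 of 9 of ionocytes and 5 of 6 of liver in each group.

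Both hatching enzyme genes were strongly expressed at 1 and 2 dpf, fell steeply from 2 to 3 dpf and fell again from 3 to 4 dpf, when most pools were at the background of the array. The fall was found in DMSO and in E2 embryos. klf17 already fell from 1 to 2 dpf, and its probes disagreed on whether a further fall from 2 to 3 dpf passed the test. cd63 stayed within a narrow range and was higher at 4 dpf than at 3 dpf. Of the 4 genes, 0 passed the test for a difference between E2 and DMSO at any stage.

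he1.1 had log2 signals of 15.10, 15.96 and 15.57 in the 3 DMSO pools of 1 dpf and of 15.04, 15.45 and 15.57 in the E2 pools. At 2 dpf they were 15.02, 14.61 and 14.72 in DMSO and 15.29, 14.95 and 14.83 in E2 pools. All 12 of these pools lay far above the later ones, and the DMSO pools of 2 dpf all lay just below those of 1 dpf. At 3 dpf the values were 9.86, 9.20, 7.89 and 8.02 in DMSO pools 1 to 4 and 11.35, 10.85, 8.77 and 7.44 in E2 pools 1 to 4. At 4 dpf they were 5.15, 2.14, 0.37 and 2.22 in DMSO and 4.59, 3.67, 0.40 and 0.46 in E2 pools. No pool of 3 dpf overlapped with one of 2 or 4 dpf, and at 4 dpf only DMSO replicate 1 and E2 replicates 1 and 2 were still above background.

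he1.2 followed the same course. Its log2 signals at 1 dpf were 13.74, 14.61 and 14.41 in DMSO and 13.85, 13.95 and 14.34 in E2 pools. At 2 dpf they were 13.81, 13.50 and 13.66 in DMSO and 14.10, 13.33 and 13.71 in E2 pools. Pools of 1 and 2 dpf overlapped in both treatments. The values of 3 dpf were 8.29, 7.89, 6.90 and 6.92 in DMSO and 9.59, 9.67, 7.60 and 6.37 in E2 pools. Those of 4 dpf were 3.48, 1.52, 0.80 and 1.53 in DMSO and 2.71, 0.60, 1.77 and 0.74 in E2 pools. As with he1.1, the stages from 2 dpf on did not overlap, and at 4 dpf only replicate 1 of each treatment remained above background.

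**Figure D1:**
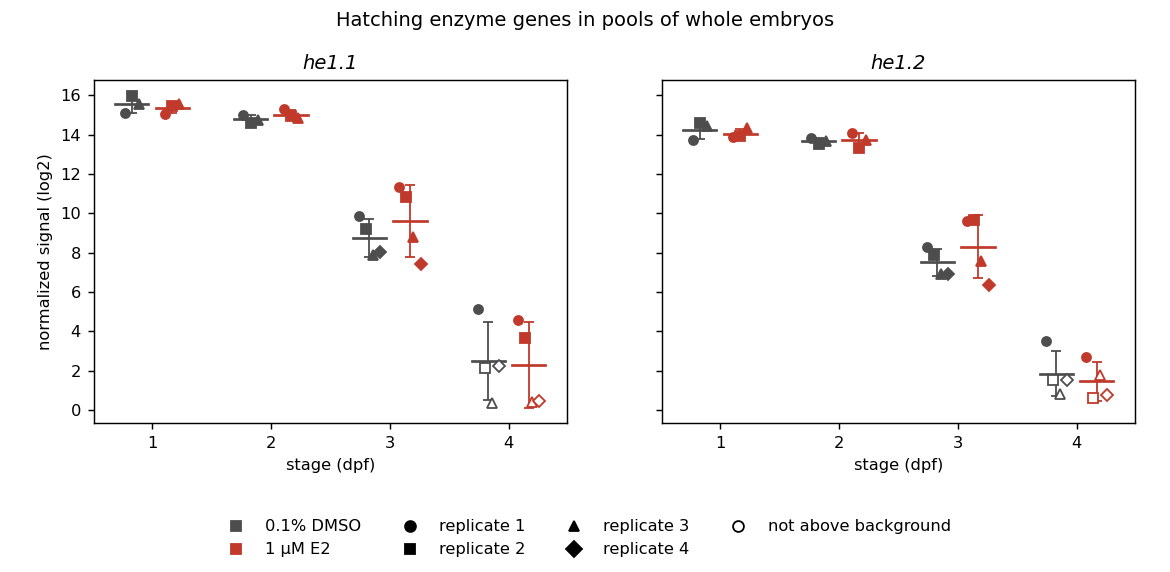
Normalized log2 signal (vertical axis) of he1.1 and he1.2 in each pool against stage in dpf, with DMSO in grey and E2 in red, 1 symbol per replicate number and open symbols where the probe was not above background. Horizontal lines are group means and bars are SDs (n = 3 at 1 and 2 dpf, n = 4 at 3 and 4 dpf). In DMSO pools he1.1 went from a mean of 14.79 at 2 dpf to 8.74 at 3 dpf and 2.47 at 4 dpf.

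From 2 to 3 dpf in DMSO embryos he1.1 fell by 5.63 on the log2 scale (SE 0.80, 49.6-fold, limma adjusted p = 5.17e-05) and he1.2 fell by 5.86 (SE 0.57, 58.2-fold, limma adjusted p = 6.99e-07). Every pool of 3 dpf was lower than every pool of 2 dpf. These fitted changes allow for the replicate number, and replicate 4 exists only at 3 and 4 dpf. They therefore differ from the differences between group means. Over 10 alternative analyses the change was -6.04 to -5.63 for he1.1 and -6.16 to -5.63 for he1.2. Of the changes of all 43603 probes in this step, that of he1.2 was the 5th lowest and that of he1.1 the 10th lowest. Thus 2 of the 4 genes were lower, where 7.29% of all probes were lower, and 0 of 4 were higher, where 8.97% of all probes were higher. In RNA from whole embryos, fewer gland cells and less RNA per cell cannot be told apart.

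In E2 embryos he1.1 fell by 5.01 in the same step (SE 0.80, 32.1-fold, limma adjusted p = 0.000186), and he1.2 fell by 5.11 (SE 0.57, 34.6-fold, limma adjusted p = 3.69e-06). They were the 9th and 8th lowest changes. With klf17, 3 of the 4 genes were lower, against 7.96% of all probes. Without E2 replicate 1 of 3 dpf, the array with the highest share of spots above background, he1.1 fell by 5.25 and he1.2 fell by 5.34. With array weights, which count this array least, he1.1 fell by 6.20 and he1.2 fell by 6.13. When only the 7 arrays of these groups were fitted, the changes were close (-4.70 for he1.1 and -4.76 for he1.2) but neither passed (adjusted p = 0.371 for each).

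From 3 to 4 dpf he1.1 fell by 6.27 in DMSO embryos (SE 0.72, limma adjusted p = 8.29e-06) and he1.2 fell by 5.67 (SE 0.52, limma adjusted p = 5.05e-07). In E2 embryos he1.1 fell by 7.32 (SE 0.72, adjusted p = 9.72e-07) and he1.2 fell by 6.85 (SE 0.52, adjusted p = 2.88e-08). In both treatments 2 of the 4 genes were lower in this step, where 6.14% of all probes were lower in DMSO and 6.8% in E2 embryos.

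No fold is given for this last step, whose size depends on how signals at background are treated, because he1.1 was above background in only 1 of 4 DMSO and 2 of 4 E2 pools of 4 dpf, and he1.2 in 1 of 4 of each. With normexp background correction and an offset of 50, which narrows differences between low signals, the changes were -2.95 (DMSO) and -3.84 (E2) for he1.1 and -1.97 and -2.69 for he1.2. All 4 remained past the threshold (adjusted p of 1.53e-06 to 0.000698).

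Between 1 and 2 dpf neither hatching enzyme gene passed the test. In DMSO embryos the change of he1.1 was -0.76 (SE 0.84, adjusted p = 0.630), although its 3 pools of 2 dpf lay below its 3 pools of 1 dpf, and that of he1.2 was -0.60 (SE 0.60, adjusted p = 0.586). In E2 embryos both changes were -0.33. The 8 groups share 1 estimate of the spread, and for he1.1 the SD was 0.21 to 0.43 at 1 and 2 dpf but 1.98 and 2.17 at 4 dpf.

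The order of the 8 group means was the same for he1.1 and he1.2. The DMSO and then the E2 pools of 1 dpf came first, followed by the E2 and DMSO pools of 2 dpf, the E2 and DMSO pools of 3 dpf, and the DMSO and E2 pools of 4 dpf. Of the 7 steps between neighbours in this order only those between stages 2 and 3 and between stages 3 and 4 passed the test. The former was a difference of 4.77 for he1.1 (adjusted p = 0.000335) and 5.06 for he1.2 (adjusted p = 4.72e-06), between DMSO pools of 2 dpf and E2 pools of 3 dpf.

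klf17 was highest at 1 dpf. With the probe of the highest mean signal (A_15_P132526) its log2 signals at 1 dpf were 6.86, 6.45 and 6.69 in DMSO and 7.05, 6.85 and 6.61 in E2 pools. At 2 dpf they were 4.89, 4.12 and 5.17 in DMSO and 5.20, 5.51 and 4.71 in E2 pools. Every pool of 2 dpf lay below every pool of 1 dpf. The values at 3 dpf were 4.51, 4.27, 3.42 and 3.71 in DMSO and 4.99, 3.43, 3.46 and 3.49 in E2 pools, and at 4 dpf 4.37, 3.27, 3.03 and 3.36 in DMSO and 3.88, 3.46, 3.69 and 1.94 in E2 pools. Pools of 3 and 4 dpf overlapped, and at 4 dpf klf17 was above background in 3 of 4 DMSO and 2 of 4 E2 pools.

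From 1 to 2 dpf klf17 fell by 1.94 on the log2 scale in DMSO embryos (SE 0.37, 3.84-fold, limma adjusted p = 0.000500) and fell by 1.70 in E2 embryos (SE 0.37, 3.24-fold, limma adjusted p = 0.00173). The other probes gave -1.79 (A_15_P110039, adjusted p = 0.0660) and -1.56 (A_15_P153666, adjusted p = 0.0408) in DMSO and -2.47 (adjusted p = 0.0110) and -2.27 (adjusted p = 0.00380) in E2 embryos. All 3 probes thus gave a lower signal at 2 dpf, though 1 of them missed the threshold in DMSO embryos.

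The probes of klf17 disagreed on the step from 2 to 3 dpf. In DMSO embryos the change was -0.57 with A_15_P132526 (SE 0.35, adjusted p = 0.330), with groups that overlapped, and -1.86 with A_15_P153666 (SE 0.52, adjusted p = 0.0180). With A_15_P110039 it was -2.33 (SE 0.65, adjusted p = 0.0186), but this probe was above background on 0 of 4 arrays at 3 dpf and 2 of 3 at 2 dpf. With the arrays of 3 dpf raised to the lowest signal well above background on each, the signal was 1.70-fold lower there than at 2 dpf. This is not a strict lower bound, because DMSO replicate 3 of 2 dpf was also not above background and was not raised.

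In E2 embryos it was A_15_P132526 that passed, as klf17 fell by 1.13 (SE 0.35, 2.18-fold, limma adjusted p = 0.0349). The other probes gave -0.82 (A_15_P110039, adjusted p = 0.462) and -0.61 (A_15_P153666, adjusted p = 0.493). A_15_P110039 was above background on only 1 of 3 E2 arrays at 2 dpf and 1 of 4 at 3 dpf, and A_15_P153666 on 2 of 3 and 4 of 4. With A_15_P132526 the E2 pools of 2 and 3 dpf overlapped despite the call. The call was lost in 6 of 10 alternative analyses (adjusted p up to 0.619), among them scaling to the 75th percentile (change -0.66, adjusted p = 0.452) and the fit without the replicate number as a block (adjusted p = 0.0665). It was also lost in 6 of 11 fits that left out an array or a replicate number (adjusted p up to 0.291): those without E2 replicate 2 or 3 of 2 dpf, without E2 replicate 2 or 3 of 3 dpf, and without replicate 2 or 3 in all groups. Whether the step differed between treatments was tested directly, and the difference was -0.55 with A_15_P132526, 1.51 with A_15_P110039 and 1.25 with A_15_P153666 (adjusted p = 1 for each).

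Across both steps, from 1 to 3 dpf, klf17 fell by 2.51 in DMSO embryos (SE 0.35, 5.71-fold, limma adjusted p = 8.26e-06) and fell by 2.82 in E2 embryos (SE 0.35, 7.07-fold, limma adjusted p = 1.84e-06), and all 3 probes passed the test in both treatments. Over this span he1.1 fell by 6.39 and he1.2 fell by 6.46 in DMSO embryos, and in E2 embryos they fell by 5.34 and fell by 5.45. So 3 of the 4 genes were lower at 3 than at 1 dpf in each treatment, where 22.5% of all probes were lower in DMSO and 26.7% in E2 embryos. From 3 to 4 dpf the change of klf17 was -0.47 in DMSO (adjusted p = 0.496) and -0.60 in E2 embryos (adjusted p = 0.233).

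cd63 had log2 signals of 13.82, 14.04 and 13.84 in DMSO and 13.86, 13.82 and 13.82 in E2 pools of 1 dpf. At 2 dpf they were 13.59, 13.52 and 13.63 in DMSO and 13.73, 13.72 and 13.72 in E2 pools. All pools of 2 dpf lay below those of 1 dpf, by little. At 3 dpf the signals were 13.56, 13.82, 13.57 and 13.58 in DMSO and 13.50, 13.91, 13.62 and 13.68 in E2 pools, and at 4 dpf 14.07, 14.19, 14.01 and 14.01 in DMSO and 14.23, 14.19, 14.03 and 13.93 in E2 pools. Every pool of 4 dpf lay above every pool of 3 dpf of the same treatment, and cd63 was above background on all 28 arrays.

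Through the steep fall of the hatching enzyme genes from 2 to 3 dpf the change of cd63 was 0.073 in DMSO (95% interval -0.14 to 0.28, adjusted p = 0.754) and -0.021 in E2 embryos (95% interval -0.23 to 0.19, adjusted p = 0.927). From 3 to 4 dpf it rose by 0.44 in DMSO (SE 0.092, 1.36-fold, limma adjusted p = 0.00325) and by 0.42 in E2 embryos (SE 0.092, 1.33-fold, limma adjusted p = 0.00444). It was the only 1 of the 4 genes that was higher at a later stage, where 4.69% of all probes rose in DMSO and 6.34% in E2 embryos. Both calls were lost when replicate 3 was left out of all groups (adjusted p = 0.0998 and 0.0947), with changes of 0.44 and 0.42 as before. The call in E2 embryos was also lost when only these groups were fitted (adjusted p = 0.373).

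From 1 to 2 dpf cd63 fell by 0.32 in DMSO embryos (SE 0.11, 1.25-fold, limma adjusted p = 0.0323) and its change was -0.11 in E2 embryos (SE 0.11, adjusted p = 0.525). The first call was close to the threshold and was lost in 8 of 10 fits that left out an array or a replicate number (adjusted p up to 0.355) and without the replicate block (adjusted p = 0.107). With klf17, 2 of the 4 genes were lower in this step in DMSO embryos, where 12.8% of all probes were lower, and 0 were higher, where 12.3% were. In E2 embryos 1 of 4, klf17, was lower, against 13% of all probes.

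**Figure D2:**
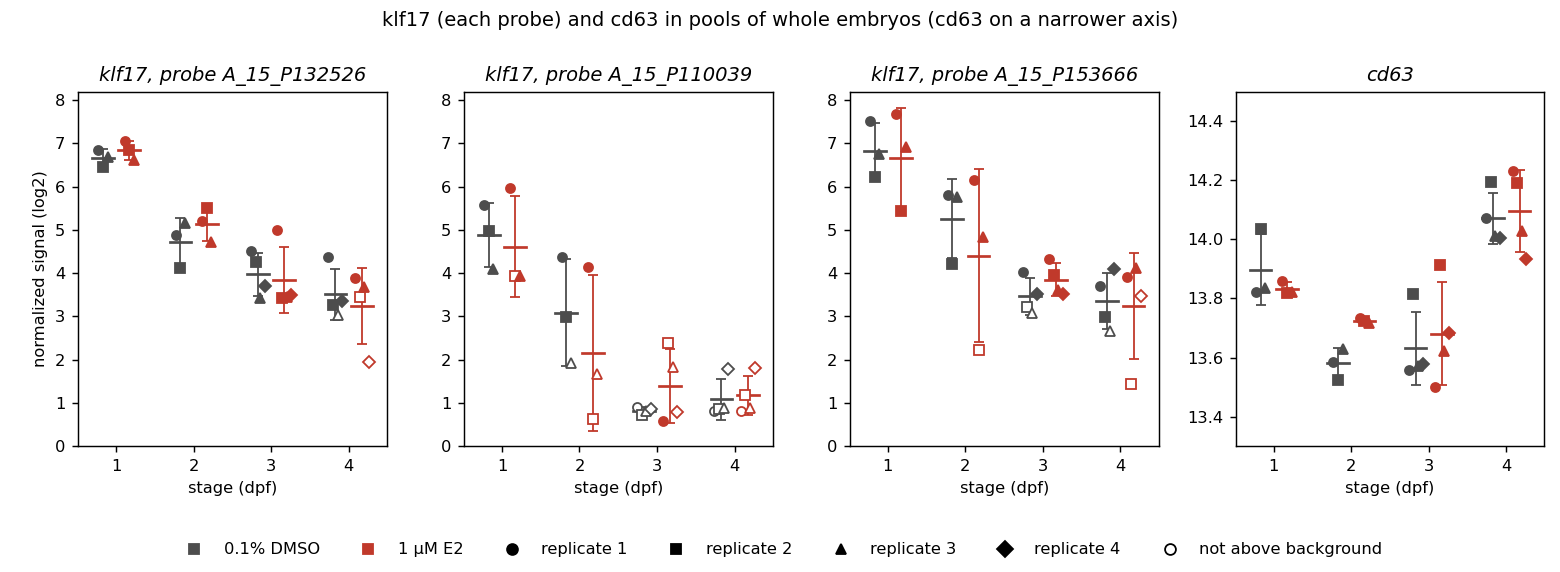
Normalized log2 signal (vertical axis) in each pool against stage in dpf, for the 3 probes of klf17 and for cd63, whose axis is narrower. Colours, symbols, means and SDs (n = 3 or 4) are as for the hatching enzyme genes. All 3 klf17 probes were highest at 1 dpf, and the 8 group means of cd63 lay between 13.58 and 14.10.

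The order of group means of klf17 went from the E2 and DMSO pools of 1 dpf down to the E2 and DMSO pools of 2 dpf, the DMSO and E2 pools of 3 dpf and the DMSO and E2 pools of 4 dpf. Of its 7 neighbouring steps only that from DMSO pools of 1 dpf to E2 pools of 2 dpf passed (1.52, adjusted p = 0.00452). For cd63 the pools of 4 dpf stood first, then those of 1 dpf, and none of the 7 steps between neighbours passed (adjusted p of 0.123 to 1).

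**Figure D3:**
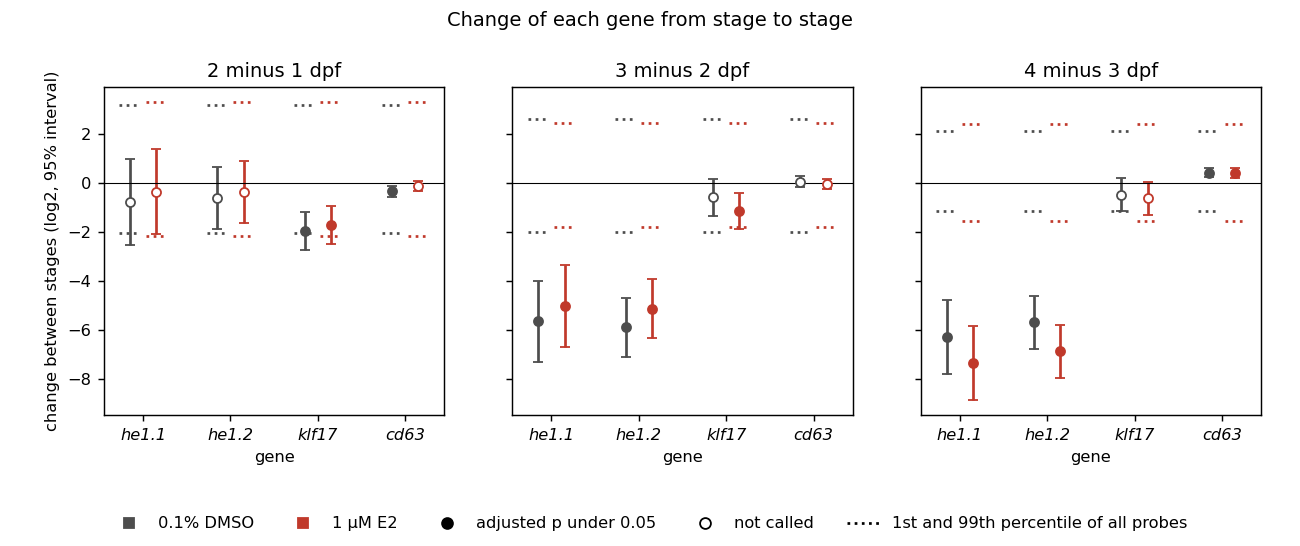
Change of each gene between neighbouring stages (vertical axis, log2) in DMSO (grey) and E2 (red) embryos, with 95% intervals, filled symbols where the adjusted p was under 0.05 and dotted lines at the 1st and 99th percentile of the changes of all 43603 probes. From 2 dpf on he1.1 and he1.2 lie far below the 1st percentile (-2.00 in DMSO embryos from 2 to 3 dpf, -1.12 from 3 to 4 dpf). The changes of cd63 lie between -0.32 and 0.44 in every step.

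The arrays were made to find what E2 changes at each stage. Of the 4 hatching gland genes, 0 passed an adjusted p of 0.05 at 1, 2, 3 or 4 dpf, where 0%, 0.00688%, 0.0321% and 0.0871% of all probes passed in either direction. The criterion of the methods, an unadjusted p of at most 0.01 and a change of at least 1.4-fold, was applied to the limma p-values. It was again met by 0 of 4 at each stage, where 0.406%, 0.229%, 0.766% and 0.493% of all probes met it. With the methods' analysis of variance, 0 of the 16 comparisons of gene and stage met it. In limma 0 of the 16 comparisons had an unadjusted p under 0.05. With normexp background correction 1 had (cd63 at 2 dpf, difference 0.24, adjusted p = 1).

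The largest differences of the hatching enzyme genes were those at 3 dpf, and neither passed the test. E2 minus DMSO was 0.86 for he1.1 (SE 0.72, 95% interval -0.66 to 2.38, adjusted p = 0.714) and 0.81 for he1.2 (SE 0.52, 95% interval -0.29 to 1.90, adjusted p = 0.658). By pair, he1.1 differed by 1.49, 1.65, 0.88 and -0.58, and he1.2 by 1.29, 1.78, 0.70 and -0.55. Both were thus higher with E2 in 3 of 4 pairs and lower in pair 4, and the treatments overlapped. The DMSO and E2 arrays of pair 2 lay on different slides and were scanned on different days, as at every other stage. At 3 dpf, however, their placement was the reverse of that at 1, 2 and 4 dpf. Its E2 array of 3 dpf shared slide and scan day with the DMSO arrays of replicate 2 at 1, 2 and 4 dpf. The part of this in the differences at 3 dpf was not tested. Pair 1 held the array with the highest share of spots above background.

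The SD between the pools of 3 dpf was 0.95 in DMSO and 1.82 in E2 embryos for he1.1 and 0.70 and 1.61 for he1.2. In both treatments replicates 1 and 2 were higher than replicates 3 and 4: the lower of the first pair and the higher of the second were 9.20 and 8.02 for he1.1 in DMSO and 10.85 and 8.77 in E2 pools. For he1.2 they were 7.89 and 6.92 in DMSO and 9.59 and 7.60 in E2 pools. At 3 dpf replicates 3 and 4 lay on 1 slide and had been scanned on 1 day. Replicates 1 and 2 lay on other slides and had been scanned on other days. The replicates also came from different spawnings, so that slide, scan day and spawning cannot be told apart here.

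Within the scan day of replicates 3 and 4, E2 minus DMSO at 3 dpf was 0.15 for he1.1 and 0.074 for he1.2 (2 arrays against 2). Within that of the other E2 arrays it was 1.24 and 1.34 (2 arrays against 1). Leaving out E2 replicate 1 of 3 dpf gave 0.63 for he1.1 and 0.60 for he1.2. Of all fits that left out an array or a replicate number, the lowest gave 0.597 for he1.1 (without replicate 2) and 0.349 for he1.2 (without E2 replicate 2 of 3 dpf). The highest gave 1.34 for he1.1 (without replicate 4) and 1.27 for he1.2 (without E2 replicate 4 of 3 dpf). With array weights, which gave E2 replicate 1 of 3 dpf a weight of 0.0456, the differences were 0.14 for he1.1 and 0.054 for he1.2.

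At the other stages E2 minus DMSO of he1.1 was -0.19, 0.24 and -0.19 at 1, 2 and 4 dpf, and that of he1.2 was -0.21, 0.054 and -0.38, with 95% intervals that all held 0. These intervals use the spread shared by the 8 groups, and the SD of he1.1 was 0.21 to 0.43 at 1 and 2 dpf but 1.98 and 2.17 at 4 dpf. They do not measure the pools of 1 and 2 dpf alone. E2 pools of he1.1 were lower in 3 of 3 pairs at 1 dpf and higher in 3 of 3 at 2 dpf, with overlapping treatments. For he1.2, 2 of 3 pairs had the sign of the difference at each of these stages. For klf17 the differences from 1 to 4 dpf were 0.17, 0.42, -0.14 and -0.27, and none reached its SE of 0.32 to 0.37 except that of 2 dpf. The remaining probes of klf17 gave -0.94 (A_15_P110039) and -0.86 (A_15_P153666) at 2 dpf, of opposite sign to the first (adjusted p = 1 for each). Both rest in part on signals at background. At 2 dpf A_15_P110039 was above background on 2 of 3 DMSO and 1 of 3 E2 arrays. A_15_P153666 was above it on 3 of 3 DMSO and 2 of 3 E2 arrays. At 2 dpf the DMSO and E2 pools of cd63 did not overlap and E2 was higher in 3 of 3 pairs, by 0.14 (SE 0.11, 95% interval -0.077 to 0.37, adjusted p = 1). Its differences at 1, 3 and 4 dpf were -0.065, 0.049 and 0.025, with 95% intervals within -0.29 to 0.24.

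**Figure D4:**
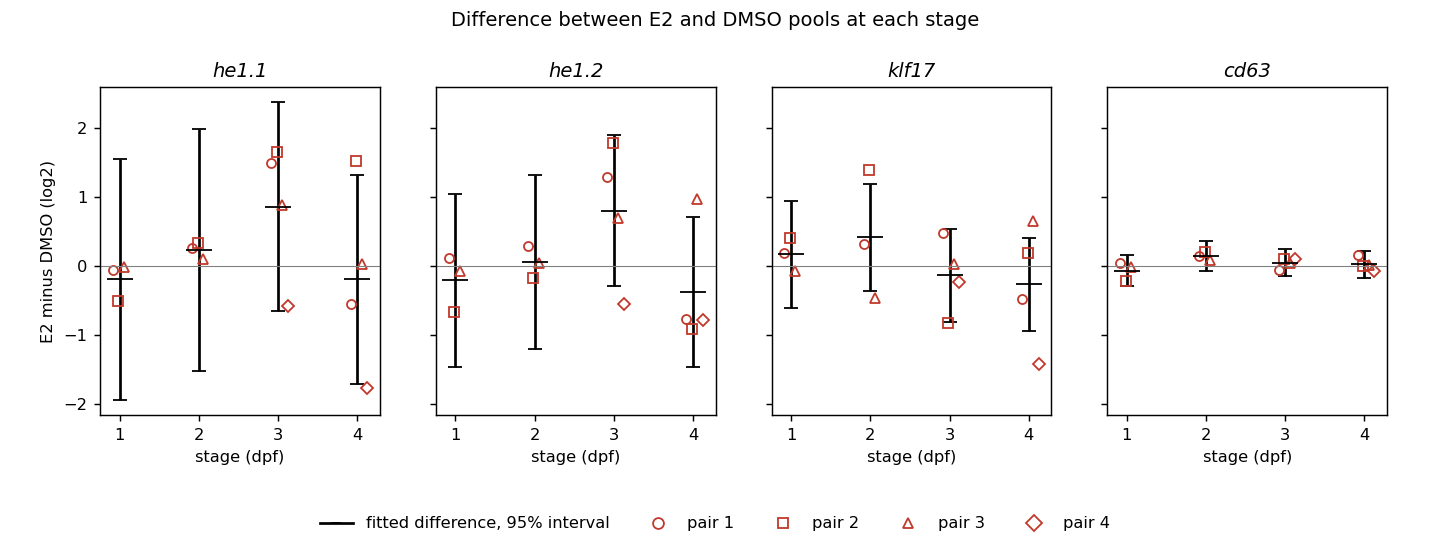
Difference between E2 and DMSO pools (vertical axis, log2) at each stage in dpf for he1.1, he1.2, klf17 (probe A_15_P132526) and cd63. Black lines are the fitted differences with 95% intervals and red open symbols the pairs of pools with the same replicate number. All 16 intervals hold 0, and the interval is widest for he1.1 and narrowest for cd63.

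Whether the effect of E2 changed from stage to stage was tested with the differences of differences. For he1.1 these were 0.43 from 1 to 2 dpf, 0.63 from 2 to 3 dpf and -1.05 from 3 to 4 dpf, and for he1.2 they were 0.26, 0.75 and -1.18 (adjusted p of 0.940 to 1). For klf17 they lay between -0.55 and 0.24 and for cd63 between -0.095 and 0.21. Of the 4 genes 0 passed in any of these 3 tests, where 0%, 0% and 0.0527% of all probes passed.

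Over the 28 arrays the log2 signals of he1.1 and he1.2 had a Pearson's r of 0.991. With klf17, r was 0.819 for he1.1 and 0.814 for he1.2, and with cd63 it was -0.530 and -0.547. klf17 and cd63 had an r of -0.159. These are descriptions over arrays that share stages and batches, and they include the differences between stages.

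Of 10532 named genes compared, those most like he1.1 over the 28 arrays were hbbe3 (an embryonic beta globin, r = 0.982), hbae4 (an embryonic alpha globin, 0.979), smarcb1b (chromatin remodelling, 0.972), e2f7 (a repressor of the cell cycle, 0.969) and tes (a protein of cell adhesions, 0.968). For he1.2 they were hbbe3 (r = 0.985), hbae4 (0.980), phgdh (serine synthesis, 0.977), socs6b (cytokine signalling, 0.977) and hoxb8a (a homeobox factor, 0.971). The size of the fall was shared by hbbe3, which changed by -5.77 from 2 to 3 dpf and by -5.76 from 3 to 4 dpf in DMSO embryos. The change from 2 to 3 dpf in DMSO embryos was smaller for the other genes named, from -1.42 (hbae4) to -0.32 (tes).

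Most like klf17 were thoc7 (mRNA export, r = 0.968), selenoh (a selenoprotein, 0.961), trim35-7 (0.961), sall4 (a zinc finger factor of early embryos, 0.961) and nkx2.7 (a homeobox factor of the heart, 0.961). Most like cd63 were cyp2y3 (a cytochrome P450, r = 0.923), mgst3b (a glutathione transferase, 0.898), si:dkey-14d8.6 (0.887), dhrs9 (a dehydrogenase, 0.876) and tm2d2 (0.866).

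Relatives of each gene were followed through the same steps. Among 8 other astacin metalloproteases with a probe, 3 were higher and 0 lower at 3 than at 2 dpf in DMSO embryos (median change 0.74), led by c6ast4 (2.08, adjusted p = 0.0238) and bmp1b, a protease of matrix and of BMP inhibitors (1.26, adjusted p = 0.00642). Of the same 8, 0 were higher and 3 lower at 2 than at 1 dpf, and 5 higher and 0 lower at 4 than at 3 dpf. Only 4, 3, 3 and 5 of the 8 were above background on all DMSO arrays of 1, 2, 3 and 4 dpf. Several of these changes thus involve signals at background. The median change of all probes was -0.010 from 2 to 3 dpf, -0.093 from 1 to 2 dpf and -0.057 from 3 to 4 dpf. Of all probes, 8.97% were higher and 7.29% lower from 2 to 3 dpf, 12.3% and 12.8% from 1 to 2 dpf, and 4.69% and 6.14% from 3 to 4 dpf.

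Of 13 cathepsins, the family of ctslb, 2 were higher and 3 lower at 3 than at 2 dpf (median 0.12), with ctss2.1 at -2.72 (adjusted p = 0.00405) and ctsll at -2.06 (adjusted p = 9.05e-07). Of 15 Klf transcription factors 3 were higher and 1 lower (median -0.084). The lower one was klf1, an erythroid factor (-1.39, adjusted p = 0.0314), and klf11b was among the higher ones (0.76, adjusted p = 0.00234). Of all probes 8.97% were higher and 7.29% lower from 2 to 3 dpf. From 1 to 2 dpf, when klf17 fell, 5 of these 15 Klf factors were higher and 0 lower, against 12.3% and 12.8% of all probes.

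Of 24 tetraspanins, the family of cd63, 7 were higher and 2 lower at 3 than at 2 dpf (median 0.033), against 8.97% and 7.29% of all probes, with tspan33b at 1.52 (adjusted p = 0.0148) and cd9a at 1.16 (adjusted p = 7.95e-06). Among 13 regulators of the prechordal plate and the hatching gland lineage 2 were higher and 0 lower (median -0.18). They were frzb, a secreted Wnt inhibitor (2.89, adjusted p = 2.34e-06), and gsc, a homeobox factor of the organizer (0.92, adjusted p = 0.00971). Both are also expressed outside this lineage at later stages.

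The secretory pathway of the endoplasmic reticulum and Golgi, which a gland cell uses heavily, was followed with 30 genes. From 1 to 2 dpf 1 was higher and 15 were lower (median -0.41), from 2 to 3 dpf 5 were higher and 0 lower (median 0.14), and from 3 to 4 dpf 0 were higher and 12 lower (median -0.27). Of all probes 12.8% were lower in the first of these steps, 8.97% were higher in the second and 6.14% were lower in the last. In the middle step hsp90b1, a chaperone, rose by 1.05 (adjusted p = 0.000385) and pdia6, a disulfide isomerase, rose by 0.85 (adjusted p = 0.000597).

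Of the markers of other cell types, the erythrocyte list was the only one with more lower than higher calls from 2 to 3 dpf in DMSO embryos, with 0 higher and 4 lower of 8 genes (median -0.98), led by hbbe3 and gata1a (-1.87, adjusted p = 2.86e-05). The globins hbae1.1, hbae3 and hbbe2 of this list changed by -0.13, -0.12 and 0.39 from 2 to 3 dpf and did not pass. From 1 to 2 dpf, where neither he1.1 nor he1.2 passed, 5 of the 8 were higher and 1 was lower (median 1.29). Of all probes 7.29% were lower from 2 to 3 dpf, and 12.3% were higher and 12.8% lower from 1 to 2 dpf. The log2 of the summed signal of the erythrocyte list was 18.03 to 19.13 at 1 dpf and 19.64 to 19.76 at 2 dpf in DMSO pools. It was 19.10 to 19.38 at 3 dpf and 17.71 to 18.36 at 4 dpf. Linear signals were added, so the probes with the highest signals count most, and the sum does not measure the number of erythrocytes. The part of the erythrocyte list in the fall of he1.1 and he1.2 from 2 dpf on was not tested.

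In each of the other lists, higher calls outnumbered lower ones or no gene passed from 2 to 3 dpf. Of all probes 8.97% were higher and 7.29% lower in this step. Higher and lower calls were 4 and 0 of 10 for epidermis (krt17 at 1.51, adjusted p = 0.000554, and krt92 at 1.13, adjusted p = 0.00445) and 2 and 0 of 9 for ionocytes (slc12a10.2 at 1.37, adjusted p = 0.0183, and atp6v1aa at 0.66, adjusted p = 9.84e-05). They were 5 and 1 of 9 for the nervous system (snap25b at 1.48, adjusted p = 0.000230, and neurod1 at 1.13, adjusted p = 6.13e-05) and 2 and 0 of 6 for liver (fabp10a at 5.30, adjusted p = 6.81e-07, and rbp4 at 1.24, adjusted p = 9.40e-06). The lower nervous system gene was dpysl3 (-1.11, adjusted p = 0.0213). Median changes were 0.19 for epidermis, 0.30 for ionocytes, 0.60 for the nervous system and -0.014 for liver. For macrophages and neutrophils (8 genes), notochord (5) and muscle (8) 0 genes passed in either direction (medians -0.19, -0.25 and 0.31). With E2, 0 of the genes tested in any of the lists passed an adjusted p of 0.05 at any stage. Of all probes 0%, 0.00688%, 0.0321% and 0.0871% passed it at 1, 2, 3 and 4 dpf. The paper used unadjusted p-values with a limit on fold change. By that criterion it reports fabp10a, of the liver list, as lowered by E2 at 2 and 3 dpf. It also reports a lower fabp10a by RT-qPCR.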

How the data were processed

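Scanner output of Agilent zebrafish 1-colour arrays was used. The authors deposited the processed signal of each spot, an intensity on a linear scale, after background subtraction and detrending within the array but before any normalization between arrays. The file headers name Agilent Feature Extraction 10.7.3.1, whereas the submitters' notes name 11.0.1.1. The series table of values, equal to this signal, was not used.

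Each array held 43803 spots besides 1417 control spots. Control spots and spots with an outlier mark (3 to 529 per array, median 9) were left out, and 0 spots were saturated. Quantile normalization of the log2 signals ran over all 28 arrays (7 slides), followed by averaging of repeated spots. Group means and a fixed block for the 4 replicate numbers were fitted in limma 3.58.1 (R 4.3.3), with p-values adjusted over 43603 probes per contrast (Benjamini-Hochberg), and called under 0.05. The fit was tested on simulated data. Python 3.11.15 with numpy 2.4.6, pandas 2.3.3 and matplotlib 3.10.9 read the files and drew the figures.

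Same-numbered DMSO and E2 pools deviated together from their group means in 14 of 14 pairs (r of 0.173 to 0.649 across probes, median 0.318, against -0.202 for different numbers) and were taken as pairs. Across stages, where the block follows the methods, 33 of 38 same-numbered pairs of pools of a treatment had an r over 0.1 (median 0.325). The exceptions all held an E2 pool of 3 dpf, and no pairs were counted across stages. Between E2 pools of 2 and 3 dpf, replicates 1 and 2 had r of -0.306 and -0.431 with the same number. With the other of these numbers they had r of 0.444 and 0.578. Between 3 and 4 dpf the same numbers had r of 0.171 and 0.214. The cause of this pattern was not tested. Genes were named through RefSeq accessions (GRCz12tu). A gene is given by its probe with the highest mean signal, with its other probes. The text names the hatching gland genes, the 5 genes most like each, and the 2 called genes of each list with the largest change from 2 to 3 dpf in DMSO embryos. The genes and lists were chosen with earlier results of these data known. Group spread was measured between pools, and the number of arrays limits the precision.

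Alternatives were scaling to the 75th percentile, normexp correction, array weights, slide or scan day in the fit, no block, only the groups compared, probes above background on at least 3 arrays, the mean of a gene's probes, the methods' analysis of variance, and leaving out arrays and replicate numbers.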

Additional observations from a re-analysis of the deposited data

Results flagged for a closer look

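Within the 16 groups of 4 pools (4 genes, 3 and 4 dpf), 2 held a pool that stood apart from the other 3 by more than Dixon's 95% critical value, where chance marks about 1 in 20 groups. For cd63 it was DMSO replicate 2 of 3 dpf, with a log2 signal of 13.82 and a gap of 0.929 of the range of its group. Its E2 partner was also the highest of its group (13.91). For klf17 it was E2 replicate 1 of 3 dpf, with 4.99 and a gap of 0.966 of the range. That array had the highest share of spots above background (96.1%), and the part of this in the klf17 value was not tested.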

How the results depend on the processing

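Over the alternatives, 567 values of the genes kept their direction and side of the threshold, 13 lost the call, 6 gained one and 30 changed sign, and 0 of the sign changes were of a called change. When arrays or replicate numbers were left out, 673 were kept, 16 lost the call, 0 gained one and 55 changed sign. The analysis of variance of the methods could be run for E2 against DMSO only. Normalized signals at background raised to the lowest signal well above background were an alternative chosen after seeing the data. Fits of only the groups compared hold fewer arrays. Causes of the changed calls were not tested. Signals at background set the limit at 4 dpf, where he1.1, he1.2 and klf17 were dim. Scaling to the 75th percentile moved the median of all probes by 0.26 (E2 minus DMSO at 3 dpf), 0.27 (E2, 2 to 3 dpf), -0.17 (E2, 3 to 4 dpf), 0.55 (E2, 1 to 3 dpf), 0.16 (E2, 1 to 2 dpf), 0.11 (DMSO, 2 to 3 dpf), 0.19 (DMSO, 1 to 3 dpf) and, for the change of the E2 effect, 0.14 (2 to 3 dpf) and -0.16 (3 to 4 dpf).

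Counts of members called differed from those reported in 16 cases under alternatives and 16 with arrays or replicate numbers left out. With no replicate block, in place of the pairing of pools, 1 member was lower from 1 to 2 dpf in DMSO embryos in place of 2, and 2 were lower from 2 to 3 dpf in E2 embryos in place of 3. That last count was also 2 with the 75th percentile, the mean of a gene's probes, scan day and slide. From 2 to 3 dpf in DMSO embryos 3 members were lower with array weights and with the mean of probes. From 1 to 3 dpf 4 were lower in both treatments with the 75th percentile, and in DMSO embryos also with array weights and with the filter on dim probes. With only the groups compared, the count was 1 lower from 1 to 2 dpf in DMSO, 0 lower from 2 to 3 dpf, 1 lower from 1 to 3 dpf and 0 higher from 3 to 4 dpf in E2 embryos. Leaving out arrays or replicate numbers gave 1 to 2 members lower from 1 to 2 dpf in DMSO, 2 to 3 lower from 2 to 3 dpf in E2 embryos, and 0 to 1 higher from 3 to 4 dpf in each treatment, with 0 only without replicate 3.

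The signs that changed were of values that had not passed the test. With the 75th percentile, E2 minus DMSO was -0.075 for cd63 and 0.32 for klf17 at 3 dpf and 0.13 for he1.1 and 0.19 for he1.2 at 4 dpf, and the change of the E2 effect from 3 to 4 dpf was 0.11 for cd63. With array weights, that change was -0.28 for he1.1 and -0.14 for he1.2 from 2 to 3 dpf, 0.071 for he1.1 and 0.45 for klf17 from 3 to 4 dpf and -0.044 for klf17 from 1 to 2 dpf, and E2 minus DMSO at 4 dpf was 0.21 for he1.1 and 0.15 for klf17. With signals raised to the floor, E2 minus DMSO at 4 dpf was 0.44 for he1.1, 0.16 for he1.2 and 0.34 for klf17, and for klf17 the change from 3 to 4 dpf in E2 embryos was 0.0011 and that of the E2 effect 0.47. With the mean of all probes of klf17, E2 minus DMSO was -0.081, -0.46 and 0.27 at 1, 2 and 3 dpf, and the changes of the effect were -0.38 and 0.74 up to 2 and 3 dpf. With normexp, klf17 had 0.0024 at 4 dpf and 0.067 for the last change of the effect. With scan day, E2 minus DMSO at 1 dpf was 0.049 for he1.2 and -0.11 for klf17, klf17 had 0.073 at 3 dpf, and cd63 had 0.0072 for the last change of the effect. With slide, klf17 had -0.021 at 1 dpf and 0.0092 at 3 dpf.

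Leaving out arrays or replicate numbers gave ranges through 0 for E2 minus DMSO of he1.1 at 1, 2 and 4 dpf (-0.87 to 0.41, -0.18 to 0.72 and -0.81 to 0.40), of he1.2 (-0.76 to 0.16, -0.14 to 0.25 and -0.82 to 0.027), of klf17 at 2, 3 and 4 dpf (-0.073 to 0.85, -0.36 to 0.096 and -0.57 to 0.12) and of cd63 at 1, 3 and 4 dpf (-0.12 to 0.011, -0.0029 to 0.12 and -0.029 to 0.067). The changes of the effect ranged from -0.17 to 1.11 (he1.1) and -0.11 to 0.82 (he1.2) from 1 to 2 dpf, for klf17 from -0.13 to 0.63, -1.05 to 0.17 and -0.51 to 0.23 over the 3 steps, and for cd63 from -0.10 to 0.028 from 3 to 4 dpf. From 1 to 2 dpf in E2 embryos he1.1 changed by -0.93 to 0.31 and he1.2 by -0.70 to 0.028, and from 2 to 3 dpf cd63 changed by -0.031 to 0.14 in DMSO and by -0.11 to 0.060 in E2 embryos.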
